A study of Mus musculus with 42 samples.

Results

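The neuronal ATAC peak list of euploid mice held 15521 peaks, and 2624 of them (16.9%) carried the authors' region annotation of a gene body, which set them apart from promoter, intergenic and subtelomeric peaks. These 2624 gene body peaks were taken as they stood, with no cut on strength, width or gene. The study compared 3 genotypes of mice. Euploid mice have the normal chromosome set, Ts65Dn mice carry an additional copy of the distal part of chromosome 16 together with a centromeric piece of chromosome 17 and serve as a model of Down syndrome, and Ts65Dn;Brwd1+/- mice carry the same extra segment but lack 1 functional allele of Brwd1, a bromodomain gene within it. Accessibility was measured by ATAC-seq in NeuN+ nuclei sorted from hippocampus of adult males (3 libraries per genotype), and SMARCA2/4 binding by ChIP-seq in whole hippocampus of males aged 6 to 8 weeks (4 immunoprecipitates and 4 inputs per genotype, each made from tissue of 2 pooled animals). Gene expression was measured by RNA-seq in primary neuronal cultures from embryonic day 16 forebrain, labelled as male and female pooled, of which the 3 euploid libraries are used here.

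ATAC-seq uses a transposase that inserts into DNA not covered by nucleosomes, so its peaks mark promoters, enhancers and other regulatory elements. In neurons many enhancers lie inside the introns of long genes, where they are bound by transcription factors such as AP-1 family members, MEF2 and proneural basic helix-loop-helix (bHLH) proteins. SMARCA2 and SMARCA4 are the alternative ATPases of the BAF complex, a nucleosome remodeller whose subunit composition changes as neural progenitors become neurons.

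Peaks were deposited as 1 list per genotype and assay. Each peak had 1 fold enrichment, and the replicate libraries behind it could not be seen. For ATAC-seq this value is read density relative to the local background. For ChIP-seq the study's methods state that peak calling was normalized to the inputs. Differences between genotypes therefore had no replicate error and were not tested. Shares are given with 95% Wilson intervals, which cover counting error only. The ATAC lists differed in size, with 29195 peaks for Ts65Dn and 30244 for Ts65Dn;Brwd1+/-, of which 7859 and 8976 were gene body peaks. The SMARCA2/4 lists differed far more, with 22667 peaks for euploid, 1290 for Ts65Dn and 1873 for Ts65Dn;Brwd1+/-. The depth behind each ATAC and ChIP list is unknown. Of 12 neuron marker genes, 9 had a euploid ATAC peak of any region, against 1 of 12 interneuron, 3 of 12 astrocyte, 2 of 12 oligodendrocyte, 3 of 12 microglia and 2 of 12 endothelial and mural markers. A promoter peak was present for 8, 0, 1, 1, 2 and 0 genes of these lists in the same order, and for 38.3% of all protein-coding genes. The neuron markers were also the longer genes, with a median of 61.5 kb against 16.3 to 44.3 kb for the other lists. Gad1, Gad2 and Slc32a1 stand in both the neuron and the interneuron list and had no euploid ATAC peak, so these 2 lists are not independent.

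The sequences of 9 gene body peaks that recur in the results are printed as 300 bp windows about the peak centre, read from the plus strand of the mm10 (GRCm38) assembly as distributed by RefSeq. Capitals mark letters of the searched motifs on either strand. A match is a description of these letters and no evidence of binding. The first 2 lie in introns of synaptic genes, Grin2a, which encodes the GluN2A subunit of NMDA receptors, and Tenm2, which encodes a teneurin that binds latrophilins across the synapse. In Grin2a the capitals mark TGATTCA, a match to the searched AP-1 letters TGANTCA, in which N is any base. In Tenm2 they mark the reverse complement of the proneural bHLH letters.
Grin2a (chr16:9851649-9851948): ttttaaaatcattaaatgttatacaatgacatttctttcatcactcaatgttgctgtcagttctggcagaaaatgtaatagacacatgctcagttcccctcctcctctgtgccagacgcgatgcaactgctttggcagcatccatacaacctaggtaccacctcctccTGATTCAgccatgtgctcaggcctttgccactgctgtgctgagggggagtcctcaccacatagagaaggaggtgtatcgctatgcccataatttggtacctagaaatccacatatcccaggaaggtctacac
Tenm2 (chr11:36566204-36566503): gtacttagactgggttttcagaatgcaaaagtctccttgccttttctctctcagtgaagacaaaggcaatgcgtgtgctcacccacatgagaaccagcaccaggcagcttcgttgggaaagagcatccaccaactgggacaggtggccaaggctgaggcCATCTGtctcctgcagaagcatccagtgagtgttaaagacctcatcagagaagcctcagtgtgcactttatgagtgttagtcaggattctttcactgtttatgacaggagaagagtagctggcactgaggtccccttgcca

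The next 3 are gene body peaks with some of the highest SMARCA2/4 enrichments, in introns of Kcnc4, a voltage-gated potassium channel gene, and of the long non-coding genes Gm31045 and Gm26694. The Kcnc4 window held a pair of AP-1 matches and 1 proneural bHLH match, the Gm31045 window a pair of AP-1 matches, and the Gm26694 window 1 MEF2 match and 1 AP-1 match.
Kcnc4 (chr3:107442321-107442620): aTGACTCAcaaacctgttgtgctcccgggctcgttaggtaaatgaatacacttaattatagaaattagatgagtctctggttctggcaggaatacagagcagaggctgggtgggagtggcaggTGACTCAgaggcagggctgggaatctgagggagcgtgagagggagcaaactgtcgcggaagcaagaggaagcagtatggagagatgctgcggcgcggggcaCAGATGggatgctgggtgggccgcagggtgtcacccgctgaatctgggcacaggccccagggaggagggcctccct
Gm31045 (chr8:25465584-25465883): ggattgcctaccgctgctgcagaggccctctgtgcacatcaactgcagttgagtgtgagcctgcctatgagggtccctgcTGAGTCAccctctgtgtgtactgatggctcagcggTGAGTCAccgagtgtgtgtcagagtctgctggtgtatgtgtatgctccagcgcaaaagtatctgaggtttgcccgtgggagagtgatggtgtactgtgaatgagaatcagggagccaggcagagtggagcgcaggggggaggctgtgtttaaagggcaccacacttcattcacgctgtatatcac
Gm26694 (chr17:25803144-25803443): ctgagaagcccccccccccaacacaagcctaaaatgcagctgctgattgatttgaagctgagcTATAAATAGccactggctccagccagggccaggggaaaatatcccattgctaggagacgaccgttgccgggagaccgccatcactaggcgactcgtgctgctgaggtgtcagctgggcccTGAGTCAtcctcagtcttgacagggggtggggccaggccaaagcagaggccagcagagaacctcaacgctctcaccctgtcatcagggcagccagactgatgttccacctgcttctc

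The last 4 are a peak of Nsg2, among the 8 with the lowest Ts65Dn to euploid ratio, the strongest gene body peak (Chl1), and the strongest found in Ts65Dn;Brwd1+/- but not in Ts65Dn (Cobl) and in neither trisomic list (Gpc6). Nsg2, which encodes a neuronal endosomal protein involved in receptor trafficking, has RFX letters in capitals. Chl1 (a neuronal cell adhesion gene of the L1 family), Cobl (an actin nucleator gene) and Gpc6 (a glypican gene) held none of the searched motifs, and the Chl1 and Cobl windows consisted largely of stretches copied in tandem.
Nsg2 (chr11:32027679-32027978): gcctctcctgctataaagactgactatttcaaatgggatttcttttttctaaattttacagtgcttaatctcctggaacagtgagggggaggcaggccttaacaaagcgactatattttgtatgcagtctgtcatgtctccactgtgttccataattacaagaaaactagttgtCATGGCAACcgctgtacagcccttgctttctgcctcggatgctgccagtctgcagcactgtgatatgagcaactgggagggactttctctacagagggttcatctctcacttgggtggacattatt
Chl1 (chr6:103649037-103649336): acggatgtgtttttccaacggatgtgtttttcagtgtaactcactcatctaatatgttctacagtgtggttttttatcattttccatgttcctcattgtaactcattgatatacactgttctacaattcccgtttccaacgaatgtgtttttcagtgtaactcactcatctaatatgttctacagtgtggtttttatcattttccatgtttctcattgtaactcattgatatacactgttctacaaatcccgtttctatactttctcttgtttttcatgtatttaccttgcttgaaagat
Cobl (chr11:12374983-12375282): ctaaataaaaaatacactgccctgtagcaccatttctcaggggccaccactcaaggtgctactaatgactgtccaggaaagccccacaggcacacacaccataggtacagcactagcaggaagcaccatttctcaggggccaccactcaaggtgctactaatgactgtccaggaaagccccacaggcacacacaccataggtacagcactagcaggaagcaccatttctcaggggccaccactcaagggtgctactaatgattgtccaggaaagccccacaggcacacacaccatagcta
Gpc6 (chr14:117383248-117383547): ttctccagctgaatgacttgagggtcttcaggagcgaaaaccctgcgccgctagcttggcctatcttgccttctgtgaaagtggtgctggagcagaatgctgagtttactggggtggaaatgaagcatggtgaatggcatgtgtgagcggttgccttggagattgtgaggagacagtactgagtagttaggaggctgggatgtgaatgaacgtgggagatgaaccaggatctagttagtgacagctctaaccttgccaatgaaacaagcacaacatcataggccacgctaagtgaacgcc

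Most gene body peaks were intronic. Against the GENCODE annotation, the centres of 2357 (89.8%, 95% interval 88.6 to 90.9) lay in an intron, 86 in a coding exon, 72 in a UTR, 56 in an exon of a non-coding transcript and 53 outside annotated genes. By the transcript the authors named for each peak, 910 (34.7%) lay in the first intron and 1448 (55.2%) in a later one. The peaks were spread along the named transcripts, with 579, 707, 590 and 665 in successive equal parts of the transcript from its start. The distance to the nearest annotated start had a median of 13687 bp and reached 484071 bp at a peak in Gpc6. The authors' annotation and GENCODE were not identical, since 77 gene body peaks lay within 3 kb of a GENCODE start.

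Gene body peaks were weaker and narrower than the proximal promoter peaks of the same list and similar to intergenic peaks. Their fold enrichment ranged from 2.27 to 17.45 with a median of 3.64 (quartiles 3.27 and 4.12), against a median of 4.51 for 8557 proximal promoter peaks and 3.79 for 2372 intergenic peaks. The median width was 267 bp (range 200 to 1678), against 424 bp for proximal promoters and 273.5 bp for intergenic peaks. Base composition separated the classes in the same way. The 300 bp windows of gene body peaks had a median GC content of 51.3% and a median of 5 CpG dinucleotides, close to the 51% and 5 of intergenic peaks and below the 66.3% and 27 of proximal promoters. The median fold enrichment went from 3.38 for the 77 peaks within 3 kb of the nearest start and 3.59 at 3 to 10 kb to 3.98 for the 99 peaks more than 100 kb away.

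**Figure D1:**
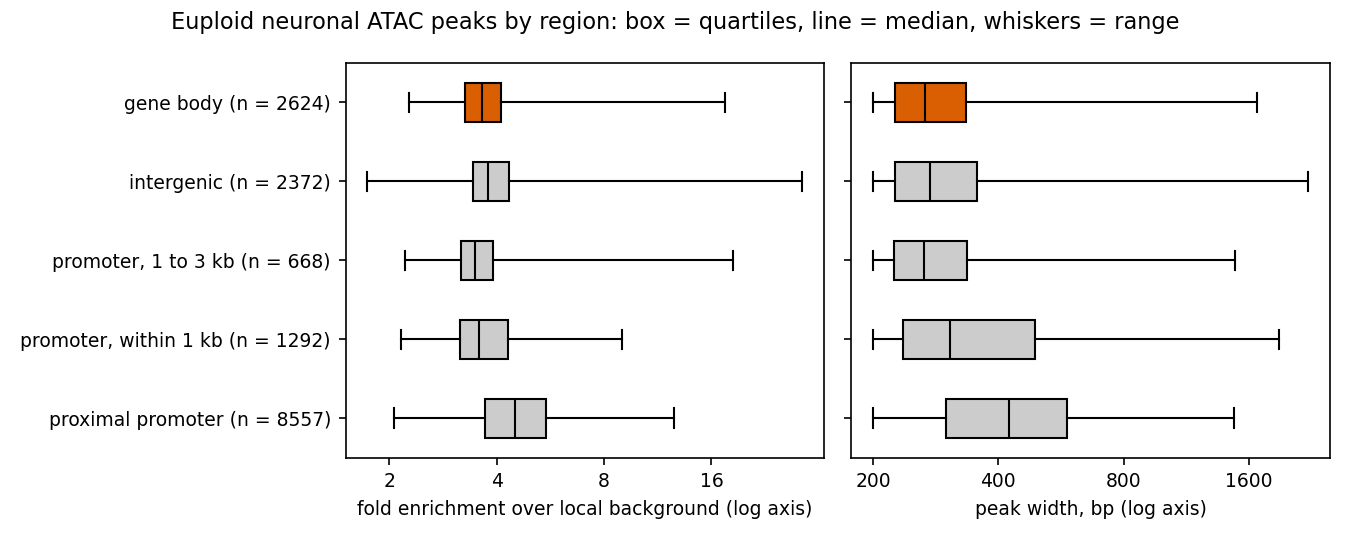
Fold enrichment (left, log axis) and width in bp (right, log axis) of euploid neuronal ATAC peaks by region, with boxes at the quartiles, lines at the medians and whiskers over the whole range. The gene body box (median 3.64 and 267 bp) lies beside the intergenic box and below that of proximal promoters (median 4.51 and 424 bp).

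The strongest gene body peak lay in intron 3 of Chl1 (chr6:103649000-103649372). Its fold enrichment was 17.45 in the euploid list, 17.92 in Ts65Dn and 14.75 in Ts65Dn;Brwd1+/-, so it stood out in all 3 lists. Peaks in Filip1l, a filamin-interacting protein gene, and in Cdk8, the kinase of the Mediator complex, followed at 12.26 and 11.61. In Ts65Dn these were 11.87 and 10.54, and in Ts65Dn;Brwd1+/- they were 10.34 and 7.71. The peak in Lars2, the mitochondrial leucyl-tRNA synthetase gene, had 8.71, 9.32 and 5.30 in the same order of lists. These 4 peaks lay apart from the rest. Below them came Gm26745, Trpm3 (a cation channel), Zfp185, Mrps27 (a mitochondrial ribosomal protein), Nol4, Celf2 (a splicing regulator), Sf3b5 (a splicing factor subunit) and Aim2 (a cytosolic DNA sensor), from 7.15 down to 6.59. All 12 were present in both trisomic lists. Euploid SMARCA2/4 peaks over Filip1l and Cdk8 had fold enrichments of 3.16 and 2.96 at q-values of 2.92e-15 and 3.33e-11. Those over Trpm3 and Nol4 had 2.95 and 3.08 at 0.0224 and 0.0199, and that over Chl1 1.77 at 0.000359. No peaks were removed for lying where reads pile up or map poorly, and whether the strongest peaks do was not tested.

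Width and strength did not single out the same peaks. The widest gene body peak spanned 1678 bp in Gm26804 at a fold enrichment of 3.83, and the next were 909 bp in Pura (a nucleic acid-binding protein needed for neuronal development), 799 bp in E030030I06Rik, 776 bp in a (agouti) and 771 bp in Dnm1 (the neuronal dynamin of synaptic vesicle endocytosis). The Dnm1 peak had a fold enrichment of 3.51 in the euploid list, 3.61 in Ts65Dn and 3.42 in Ts65Dn;Brwd1+/-. None of these 5 was among the 12 strongest.

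The 2624 peaks fell in 1887 genes. Of these, 1447 held 1 peak, 440 held 2 or more, and 38 held 5 or more. The 440 genes with several accounted for 1177 peaks (44.9%). Neighbouring peaks in such genes were usually far apart, with a median gap of 45370 bp over 737 gaps and only 35 gaps under 1 kb. The gene of 1521 peaks (58.0%) also had a promoter peak in the euploid list.

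The 12 genes with the most peaks, with ties at 6 peaks settled by the highest fold enrichment, were between 307 and 4435 kb long. Gm20388, a predicted locus that spans other genes and had an RPKM of 0 in the cultures, was given 11. Anks1b, which encodes a postsynaptic density scaffold, Grin2a and Arhgef28, a guanine nucleotide exchange factor gene, held 8 each. Pde4d (a cAMP phosphodiesterase), Myt1l (a zinc finger repressor of non-neuronal programmes), Gse1 (a histone deacetylase-associated protein), Kalrn (an exchange factor for small GTPases in dendritic spines), Itpr1 (the IP3 receptor calcium channel) and Ank3 (ankyrin-G of the axon initial segment) held 7 each, and Phactr1 (a regulator of actin and protein phosphatase 1) and Maml3 (a Notch coactivator) held 6.

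**Figure D2:**
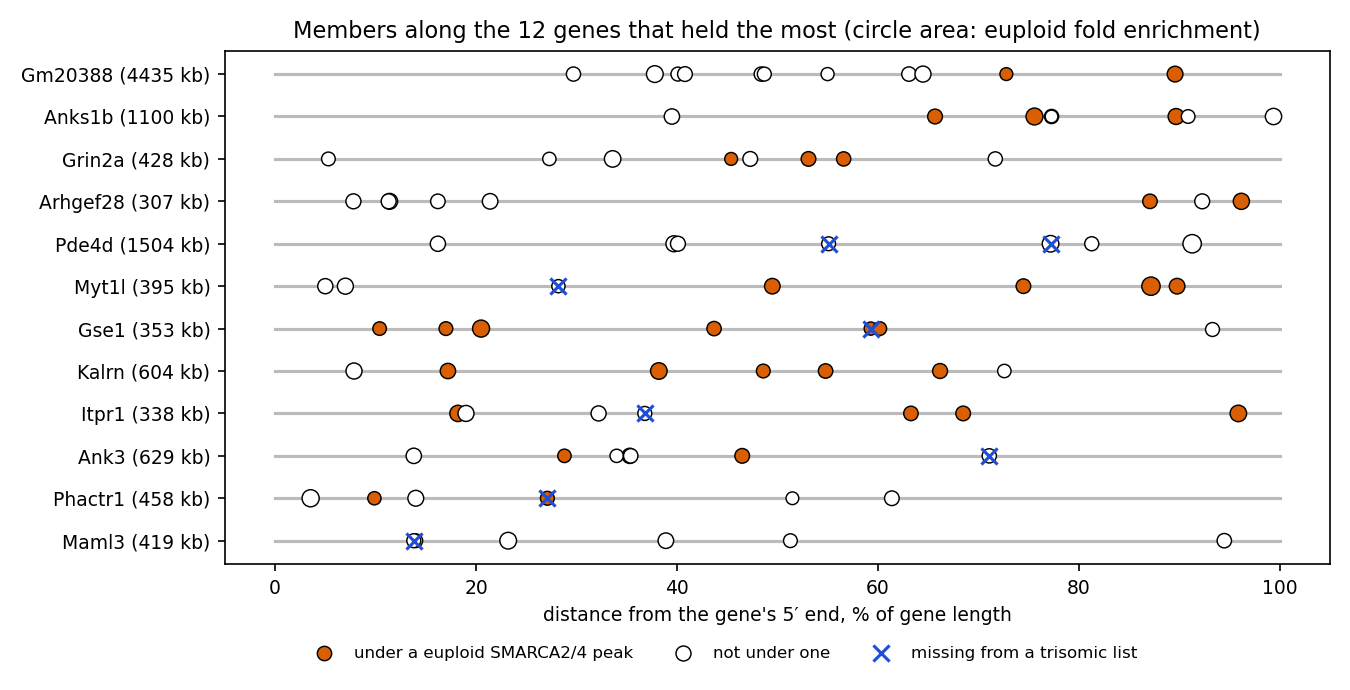
Position of euploid gene body peaks along the 12 genes that held the most, as distance from the 5′ end in % of gene length, with circle area proportional to euploid fold enrichment. Filled circles lay under a euploid SMARCA2/4 peak and crosses mark peaks missing from a trisomic list: 6 of the 7 Gse1 peaks and 5 of the 7 Kalrn peaks were filled, while Pde4d had none filled and 2 crossed.

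Of the 7 peaks in Myt1l, the strongest (chr12:29872279-29872834) had a fold enrichment of 5.53 in the euploid list, 7.38 in Ts65Dn and 5.31 in Ts65Dn;Brwd1+/-. The weakest (chr12:29639798-29639999) had 2.85, was missing from the Ts65Dn list and had 2.95 in Ts65Dn;Brwd1+/-. In Grin2a all 8 peaks were in both trisomic lists. The peak whose sequence is shown (chr16:9851657-9851939, intron 1) was the strongest of them at 4.46 in the euploid list, 5.51 in Ts65Dn and 4.64 in Ts65Dn;Brwd1+/-. The 8 Anks1b peaks were likewise in both lists, ranging from 2.66 to 4.70 in euploid. Among the peaks of these 12 genes that were in neither trisomic list, the strongest was in Pde4d (chr13:109609863-109610137), at a euploid fold enrichment of 4.49.

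Genes that held a gene body peak were longer than those that did not, and their level was higher except among genes that also had a promoter peak. Of 21896 protein-coding genes, 1627 (7.43%) held 1 or more. Their median length was 110.4 kb, against 15.38 kb for the others, and their median level in the euploid cultures was 5.59 RPKM ± 0.113 (SD of the library medians, n = 3), against 1.29 RPKM ± 0.026. How often a gene held a peak went with its length, from 0.501% of genes under 10 kb to 30.7% at 100 to 300 kb and 53.7% above 300 kb. Per Mb of gene the peaks numbered 1.08 in the shortest class, 2.78 at 100 to 300 kb and 2.02 above 300 kb. Within the class of 100 to 300 kb, the median level was 5.95 RPKM with a peak and 3.30 RPKM without. Genes with a gene body peak but no promoter peak had a lower level, 2.27 RPKM over 642 genes, than those with both, 7.44 RPKM over 985 genes. Genes with a promoter peak alone had 7.83 RPKM over 7399 genes, so a gene body peak did not go with a higher level there. The cultures are embryonic forebrain and the peaks adult hippocampus, so these levels describe the genes in another tissue and age.

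The gene lists by role hold mostly long genes, so their counts are read against the 7.43% of all protein-coding genes and the 9.95% at 30 to 100 kb, 30.7% at 100 to 300 kb and 53.7% above 300 kb that held a peak. Over all gene body peaks 93.8% were in the Ts65Dn list, 93.5% in the Ts65Dn;Brwd1+/- list and 28.8% under a euploid SMARCA2/4 peak, and no list was tested against these shares. Of 17 ionotropic glutamate receptor genes, 8 (47.1%, median gene length of the list 318.9 kb) held 23 peaks, all but 2 of which were in the Ts65Dn list and 9 of which lay under a euploid SMARCA2/4 peak. Gria1, the GluA1 subunit of AMPA receptors, held 5, with 1 (chr11:57310941-57311183, fold enrichment 3.30) missing from both trisomic lists. Of 8 metabotropic glutamate receptor genes, 4 held 8 peaks, none under SMARCA2/4. Among 14 GABA receptor genes, 5 held 12 peaks, all present in both trisomic lists. Gabrb1, a GABA-A receptor beta subunit gene, held 5 of the 12, at euploid fold enrichments from 3.14 to 4.71.

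Of 15 voltage-gated calcium channel genes, 7 held 20 peaks, 16 of which were in the Ts65Dn list and 19 in the Ts65Dn;Brwd1+/- list. Cacna1e, an R-type channel subunit gene, accounted for 2 of those missing from Ts65Dn. Cacna1c, the L-type subunit of hippocampal neurons, held 5, all present in both, the strongest at 4.26 in the euploid list, 5.39 in Ts65Dn and 3.92 in Ts65Dn;Brwd1+/-. Potassium channels had peaks in 12 of 23 genes (25 peaks), led by Kcnj6, a G protein-gated inward rectifier, with 6. Sodium and HCN channel genes, with a median length of 31.1 kb, held 3 peaks in 3 of 12 genes, including 1 each in Scn8a and Scn2a at fold enrichments of 5.00 and 3.98.

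Of 32 synaptic adhesion genes, 15 (46.9%, median length 475.7 kb) held 35 peaks, a share below that of all genes above 300 kb. Tenm2 held 5, and its peak at chr11:36566187-36566520 had 4.22 in the euploid list, 5.29 in Ts65Dn and 5.49 in Ts65Dn;Brwd1+/-. Nrxn3, a presynaptic neurexin gene, also held 5, and 2 of these were in the Ts65Dn list but not in the Ts65Dn;Brwd1+/- list. Cadherin and contactin genes held 12 peaks in 8 of 21 genes, none under SMARCA2/4. Postsynaptic density scaffolds held 37 peaks in 9 of 24 genes, 20 of them under SMARCA2/4, and differences between the lists were not tested. Dlgap2 held 5, Magi2 and Dlgap1 held 4 each, and Dlgap4 held 3.

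On the presynaptic side, 12 of 31 vesicle release genes held 24 peaks, 23 in the Ts65Dn list and 24 in the Ts65Dn;Brwd1+/- list, and 12 under SMARCA2/4. Erc2, an active zone scaffold, held 4, and Rimbp2, which links calcium channels to release sites, held 3, all 3 under SMARCA2/4. The 3 peaks of Syt1, the calcium sensor for fast release, were all outside SMARCA2/4 peaks. Axon guidance genes had 22 peaks in 13 of 29 genes, 18 in the Ts65Dn list and 17 in the Ts65Dn;Brwd1+/- list. Slit3, a repulsive ligand of Robo receptors, held 6. The semaphorin gene Sema5a and the plexin gene Plxna4 each had 1 peak that was in neither list.

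Of the 16 role lists, that of kinases and second messengers had the largest share of genes with a peak, 71.0% at a median length of 338 kb. In all, 22 of its 31 genes held 54 peaks, 50 in the Ts65Dn list and 52 in the Ts65Dn;Brwd1+/- list. Pde4d and Itpr1 held 7 each, Pde10a, a striatum-rich phosphodiesterase, 6, and Prkce, a protein kinase C gene, 5. The strongest peak of the list lay in Ryr3, a ryanodine receptor gene, at 6.02. Camk2a, the alpha subunit of calcium/calmodulin-dependent kinase II, held 3 weak peaks, the highest at 2.91, though its level in the cultures was 94.1 RPKM ± 12.4 (SD, n = 3).

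Activity-regulated genes were the opposite case. None of 20 such genes held a gene body peak, in any of the 3 ATAC lists, while 18 of the 20 had a promoter peak in the euploid list. These genes are short, with a median length of 7.03 kb, and genes under 10 kb rarely held a gene body peak of any kind. Among neuronal transcription factors and RNA-binding proteins, 16 of 32 genes held 34 peaks, all in the Ts65Dn;Brwd1+/- list and 33 in the Ts65Dn list. After Myt1l came Celf4 with 4, Celf2 and Zbtb20 with 3 each. Microtubule and axonal cytoskeleton genes held 17 in 6 of 18 genes. Of 24 BAF subunit genes, 5 held 10 peaks, all in both trisomic lists, and Arid1b held 5 of them.

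Nearly all gene body peaks recurred in the trisomic lists, though a smaller share than of euploid peaks as a whole. The Ts65Dn list contained 2462 (93.8%, 92.8 to 94.7), where 96.7% of all euploid peaks were called present by the same overlap of at least 1 bp. The Ts65Dn;Brwd1+/- list contained 2453 (93.5%, 92.5 to 94.4), against 96.2% of all euploid peaks. A total of 2367 (90.2%) were in both, 95 in Ts65Dn only, 86 in Ts65Dn;Brwd1+/- only and 76 (2.90%, 2.32 to 3.61) in neither, against 1.6% of all euploid peaks in neither. Almost all partners (99.8%) were themselves annotated as gene body peaks. The trisomic lists were the larger ones. Reduced to the size of the euploid list by keeping their peaks of highest fold enrichment, they contained 65.7% (Ts65Dn) and 60.6% (Ts65Dn;Brwd1+/-) of gene body peaks, against 87.9% and 84.4% of proximal promoter peaks and 71.0% and 68.9% of intergenic peaks. Of gene body peaks, 51.9% were then in both lists and 25.5% in neither. Without this reduction intergenic peaks were present in 92.96% and 91.2%, slightly less often than gene body peaks. The order of these classes thus differed between the full lists and those reduced by fold enrichment.

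Stronger peaks were present more often. When all euploid peaks were ranked into 10 equal classes of fold enrichment, gene body peaks in the lowest 3 classes were present in Ts65Dn in 91.4% (89.6 to 92.9), those of the middle 4 in 95.1% (93.8 to 96.2) and those of the highest 3 in 98.8% (96.6 to 99.6). The corresponding shares in Ts65Dn;Brwd1+/- were 90.6%, 95.3% and 98.1%. Within the lowest 3 classes, proximal promoter peaks were still present more often, at 96.0% in Ts65Dn, and intergenic peaks slightly less often, at 88.7%. Peaks in neither list had a median fold enrichment of 3.31, against 3.66 for those in both.

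**Figure D3:**
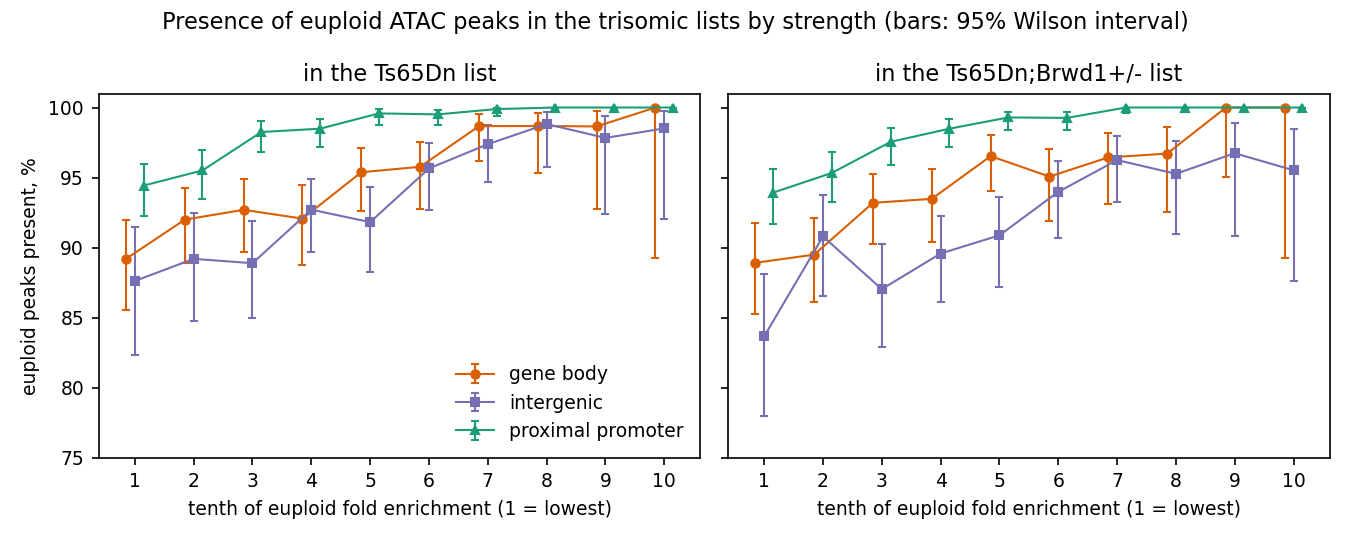
Share of euploid peaks present in the Ts65Dn list (left) and the Ts65Dn;Brwd1+/- list (right), in %, by class of euploid fold enrichment from the lowest (1) to the highest (10), for gene body, intergenic and proximal promoter peaks with 95% Wilson intervals. Gene body peaks rise from 89.2% in the lowest class to 98.7% in class 7 in the Ts65Dn panel and stay below proximal promoters in classes 1 to 9.

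The strongest peaks in neither trisomic list lay in Gpc6, at 5.02, in the collagen gene Col23a1, at 4.77, and in Gm16090, at 4.604. The Pde4d peak described above, Gm16271 (4.48), Tusc3 (an oligosaccharyltransferase subunit, 4.29), 1110019D14Rik (4.19), Tnr (the extracellular matrix protein tenascin-R, 4.13) and Drosha (the nuclear microRNA processing enzyme, 4.00) were also among the 10 highest. Cobl was the strongest of those in the Ts65Dn;Brwd1+/- list but not in Ts65Dn, at 5.96 in euploid and 5.11 in Ts65Dn;Brwd1+/-. Plcb4, a phospholipase C gene, had 4.32 and 2.88 in the same lists, and Btbd3, which orients dendrites towards active axons, 4.01 and 4.11.

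Tandem copies were found under several of these. In 27 gene body peaks (1.03%), over 50% of the bases of the 300 bp window lay in 12-base words repeated within the window, against 0.451% of all euploid peaks and 0.717% of intergenic peaks. Their median fold enrichment was 4.29, against 3.64 for the others. Only 15 of the 27 (55.6%, 37.3 to 72.4) were in both trisomic lists, against 90.6% of the other peaks, and 5 were in neither. The Chl1 window was 75.3% tandem copies at a spacing of 121 bp, and the Cobl window 90.3% at 96 bp. The Col23a1, Gm16090 and Tusc3 peaks, all in neither list, had 77.7%, 90.7% and 96.0%. The part that repeated sequence had in these differences was not tested.

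Among shared peaks the fold enrichment was higher in Ts65Dn, as it was over the list as a whole. The median log2 ratio of Ts65Dn over euploid was 0.30 (quartiles 0.15 and 0.46) over 2462 gene body peaks, a ratio of 1.23, and 2228 (90.5%) were higher in Ts65Dn. The same median over all 15012 shared peaks was 0.30, so gene body peaks did not depart from the list. For Ts65Dn;Brwd1+/- over euploid the median was 0.065 (61.8% of 2453 higher), close to the 0.066 of all shared peaks. It went to 0.145 with the list reduced by fold enrichment and to 0.0321 with partners of similar width matched once. The median of Ts65Dn;Brwd1+/- over Ts65Dn was -0.23. The comparisons share the euploid or Ts65Dn values and are given side by side. Only 6 gene body peaks exceeded 2-fold in Ts65Dn, where 1.07% of all shared peaks were called above 2-fold, and only 2 in Ts65Dn;Brwd1+/-, against 0.496% of all shared peaks. None was more than 2-fold lower in either list.

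**Figure D4:**
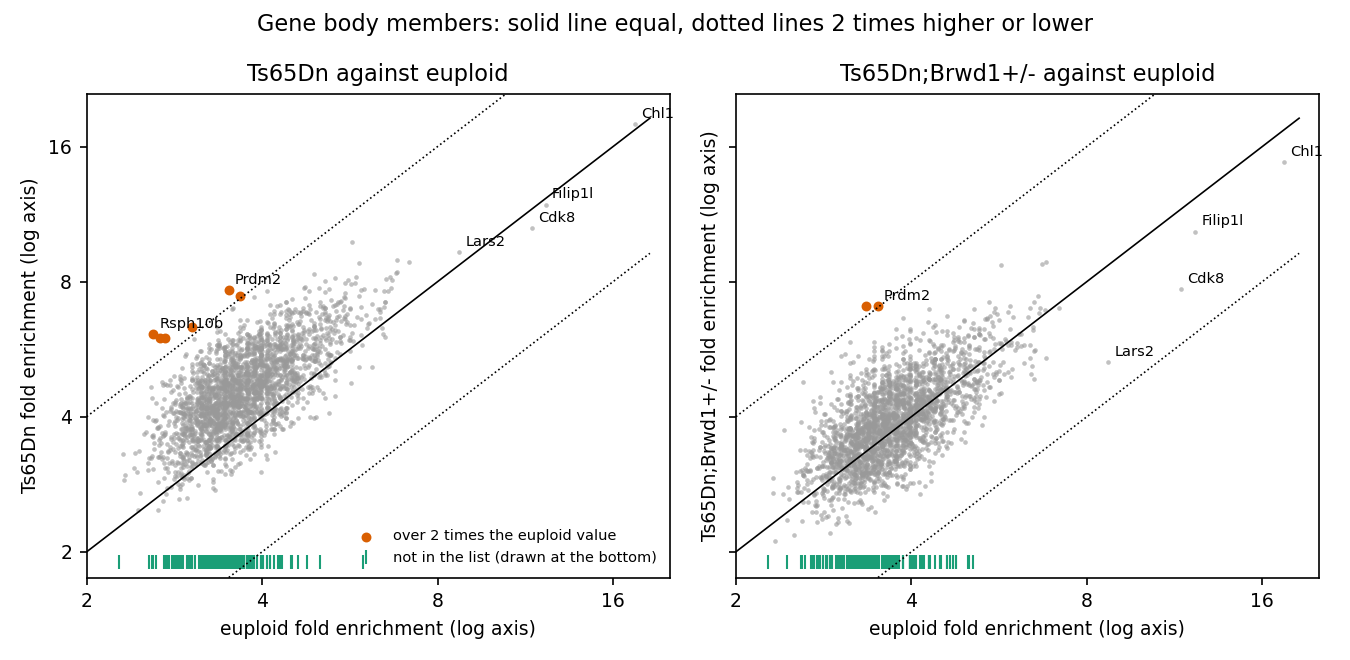
Fold enrichment of gene body peaks in Ts65Dn (left) and Ts65Dn;Brwd1+/- (right) against euploid, on log axes, with a solid line at equality, dotted lines at 2 times higher or lower, and ticks at the bottom for peaks absent from that list. The cloud lies above the line of equality in the Ts65Dn panel, where 90.5% were higher, and on it in the other, while Chl1, Filip1l, Cdk8 and Lars2 stand apart at the upper right.

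The largest excess in Ts65Dn was at Rsph10b, a radial spoke protein gene of motile cilia, where the fold enrichment was 2.60 in the euploid list, 6.11 in Ts65Dn and 4.78 in Ts65Dn;Brwd1+/- (log2 ratios 1.23 and 0.87). The peak was 214 bp wide in euploid and its partners were 856 and 824 bp wide, so the pairs did not cover the same bases. At Prdm2, a histone methyltransferase gene, a 202 bp peak with 3.50 met partners of 980 and 861 bp with 7.66 and 7.06. Ltbp3 (latent TGF-beta binding protein), Gnb5 (a neuronal G protein beta subunit), Mdga2 (an inhibitor of neuroligin-neurexin contacts) and Zfp286 also exceeded 2-fold, with Ts65Dn values of 6.00, 5.99, 6.34 and 7.43. L3mbtl4 and Prdm12 followed just below 2-fold, at log2 ratios of 0.97 each. The partner was wider than the euploid peak in all of these cases.

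Peaks with a lower value in Ts65Dn differed by less. A Tcte2 peak had 3.98 in euploid and 3.01 in Ts65Dn (log2 ratio -0.40), with 3.69 in Ts65Dn;Brwd1+/-. Galntl6 (5.21 to 4.09), C230014O12Rik (4.94 to 4.00), Rab3c, a vesicle-associated GTPase gene (4.06 to 3.29), Hdac9, a class IIa histone deacetylase gene (4.92 to 3.98), Pla2g4a, the cytosolic phospholipase A2 gene (4.82 to 4.00), E030030I06Rik (5.69 to 4.75) and Nsg2 (5.32 to 4.44) followed. In Ts65Dn;Brwd1+/- the value was 4.58 for Nsg2, and it was below that of Ts65Dn for C230014O12Rik (3.52), Hdac9 (3.69) and E030030I06Rik (4.53). The Tcte2 peak and that of E030030I06Rik lay in repeated sequence, covering 55.0% and 67.0% of their windows.

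The triplicated segments held 45 gene body peaks in 23 genes, and Brwd1 itself held none. All 45 were in the Ts65Dn list and 44 in the Ts65Dn;Brwd1+/- list, against 93.7% and 93.4% of the gene body peaks elsewhere. Their median log2 ratio was 0.31 in Ts65Dn and 0.03 in Ts65Dn;Brwd1+/-, against 0.30 and 0.07 for the 2579 peaks elsewhere. Fold enrichment over local background cannot show the extra copy, since the background around these peaks carries it as well. Kcnj6 and Pde10a held 6 each, Arid1b, a BAF subunit gene, held 5, Dscam, a neuronal self-avoidance molecule, 4, and Rps6ka2, a ribosomal S6 kinase gene, 3. The strongest Dscam peak (chr16:97127368-97127678) had 4.92 in the euploid list, 5.00 in Ts65Dn and 4.75 in Ts65Dn;Brwd1+/-. The widest Arid1b peak (chr17:5189682-5190306) had 3.99, 5.16 and 4.04.

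SMARCA2/4 lay over a minority of gene body peaks. In euploid hippocampus 755 (28.8%, 27.1 to 30.5) overlapped a SMARCA2/4 peak, where 31.2% of all euploid ATAC peaks were called under one. The share was 12.5% when only SMARCA2/4 peaks with a q-value under 0.001 were kept and 6.10% when 50% of the ATAC peak had to be covered, and the comparisons by width and motif rest on the 1 bp overlap with all deposited peaks. The SMARCA2/4 peaks over gene bodies had fold enrichments from 1.77 to 6.82 with a median of 3.73, and for 690 of the 755 the q-value was under 0.05. In the far shorter trisomic SMARCA2/4 lists, 72 gene body peaks (2.74%) were covered in Ts65Dn and 83 (3.16%) in Ts65Dn;Brwd1+/-, and 20 (0.762%) were covered in all 3 genotypes. Over all euploid ATAC peaks the shares were 1.71%, 2.63% and 0.515%. Only 31.8% of all Ts65Dn and 58.2% of all Ts65Dn;Brwd1+/- SMARCA2/4 peaks had a q-value under 0.05, with q-values up to 1, against 87.8% in euploid. The Chl1 peak, at the lowest SMARCA2/4 fold enrichment of 1.77, and the Filip1l peak, at 3.16, were among these 20. ChIP was made on whole hippocampus, which holds glia as well as neurons, and the part of glia in these overlaps was not tested.

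Wider peaks were covered by SMARCA2/4 more often. A wider peak has more bases that can meet the 1 bp rule, which raises its coverage by construction. Coverage was 20.8% for gene body peaks of 200 to under 250 bp, 30.02% at 250 to under 300 bp, 31.8% at 300 to under 400 bp and 46.9% (41.4 to 52.5) from 400 bp. In each width class it was higher than in intergenic peaks of the same class, which gave 15.3%, 20.5%, 27.8% and 44.0%, with intervals that overlapped in the upper classes. Proximal promoters of the same widths gave 20.6%, 21.9%, 27.1% and 39.3%, so within a width class they were not covered more often than gene body peaks. By strength it was 29.3% in the lowest 3 classes, 26.8% in the middle 4 and 35.7% in the highest 3. Covered peaks were more often in the trisomic ATAC lists, at 97.2% (95.8 to 98.2) in Ts65Dn against 92.5% (91.2 to 93.6) of the others. Among peaks in neither list 6 of 76 (7.89%, 3.67 to 16.2) were covered. Covered peaks were also wider, with a median of 292 bp against 260 bp.

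The highest SMARCA2/4 fold enrichment over a gene body peak was 6.82 in intron 9 of Tbc1d22a, a Rab GTPase-activating protein family gene, where the ATAC fold enrichment was 2.58. Gm26694 (6.19), Gm31045 (6.16), Tenm2 (6.03), Morn1 (5.97), Kcnc4 (5.96), Ptk2b, a calcium-activated tyrosine kinase gene (5.92) and a pair of peaks in Timp2, a metalloproteinase inhibitor gene (5.88), followed. All of these were in both trisomic ATAC lists. At Gm31045 the ATAC fold enrichment was 5.69 in the euploid list, 7.92 in Ts65Dn and 5.84 in Ts65Dn;Brwd1+/-, and at Kcnc4 it was 3.27, 4.51 and 3.17.

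Transcription factor motifs were counted in the 300 bp windows on both strands, as AP-1 TGANTCA, CRE TGACGTCA, MEF2 CTATTTNTA, proneural bHLH CAGATG, EGR GCGNGGGCG, CTCF CNAGGGGGC, RFX GTTGCCATG, NRF1 GCGCATGCG and the nuclear receptor site AAAGGTCA. N stood for any base, so the AP-1 counts include TGAATCA and TGATTCA. Matches with C or G in the middle were not counted apart from these. AP-1 and bHLH matches shared bases in 22 gene body peaks, and no other pair of motifs did. Proneural bHLH letters were in 45.4% (43.5 to 47.3) of gene body peaks, 41.0% (39.01 to 43.0) of intergenic peaks and 8.43% of proximal promoters. AP-1 letters were in 18.1%, 18.2% and 3.24%, MEF2 letters in 2.25%, 2.02% and 0.573%, and RFX letters in 3.01%, 2.96% and 1.11%. Promoters had the larger shares for EGR (13.9% against 1.07% of gene body peaks), CTCF (4.91% against 1.07%), NRF1 (4.00% against 0.724%) and CRE (3.95% against 0.80%). The windows also differ in composition, with a median GC of 66.3% and 27 CpG in proximal promoters against 51.3% and 5 in gene body peaks. The part of composition in the motif shares of these classes was not tested. The nuclear receptor site was in 11 gene body peaks (0.419%). None of the 9 motifs was found in 1049 gene body peaks (40.0%).

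**Figure D5:**
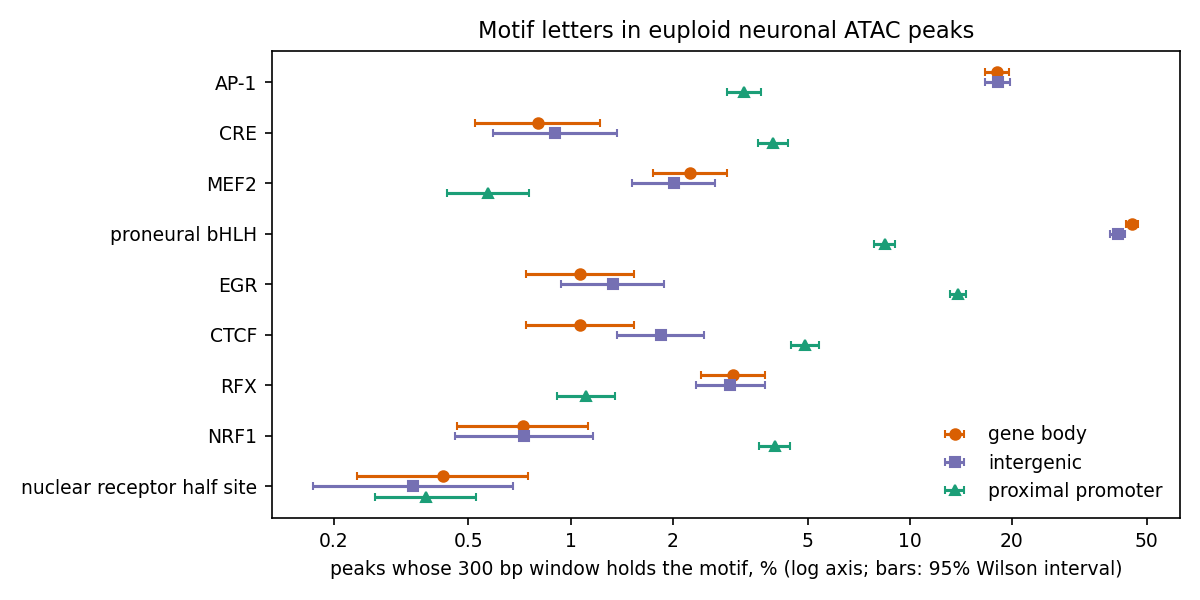
Share of euploid ATAC peaks whose 300 bp window held the letters of each motif, in % on a log axis with 95% Wilson intervals, for gene body, intergenic and proximal promoter peaks. Gene body and intergenic points lie together for AP-1 (18.1% and 18.2%) and apart from proximal promoters (3.24%), and the order is inverted for EGR and NRF1.

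Gene body peaks with AP-1 letters lay under SMARCA2/4 more often than those without, at 38.9% (34.7 to 43.4) against 26.5% (24.7 to 28.4). The same held for proximal promoters, at 41.2% against 31.9%, and the difference was smaller in intergenic peaks, at 27.0% against 22.8%. The median width was 267 bp with AP-1 letters and 268 bp without, and the median fold enrichment was 3.68 and 3.63. Gene body peaks with RFX letters were covered in 45.6% (35.1 to 56.5), over 79 peaks, against 28.3% of the others. With bHLH letters coverage was 28.2%, against 29.2% without, while presence in Ts65Dn;Brwd1+/- was 96.5% with them and 91.0% without. In Ts65Dn the latter shares were 95.5% and 92.5%.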

How the data were processed

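ATAC-seq, ChIP-seq and RNA-seq of 42 samples were deposited; the submitters' processing notes name HISAT2, featureCounts and DESeq2 and the mm10 build, and the study's methods name MACS for peaks and diffReps for differential sites. For each of 6 combinations of assay and genotype the authors deposited 1 annotated peak list, with fold enrichment (a ratio), p-value, q-value and a region. The ratio is over local background for ATAC-seq, and ChIP-seq peak calling was normalized to the inputs. How the replicates were joined for peak calling, and the depth of each list, are not given in the sources used here. The authors deposited RNA-seq counts per gene for each library. The euploid cultures had 20663650 to 23207352 counts in genes, and 38.99% to 39.94% of counts in lines that name no gene were left out. Nothing in the labels says whether the 3 cultures came from separate litters.

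The gene body peaks and the lists of genes by role were chosen with earlier results of these data known. An overlap of 1 bp or more counted as shared, and the peak with the longest overlap was the partner. Features came from GENCODE M21, and sequence from the RefSeq copy of GRCm38. RPKM used the union of exons and TMM-scaled library sizes (edgeR 4.0.16, R 4.3.3). No comparison between genotypes was tested, and the overlap, interval and motif functions were tested on simulated data (Python 3.11.15, pandas 2.3.3, SciPy 1.17.1). Named were the 12 genes with the most peaks, the 12 strongest and 5 widest peaks, the 10 strongest in neither trisomic list and in Ts65Dn;Brwd1+/- only, the 8 with the largest and the 8 with the smallest Ts65Dn to euploid ratio, the 10 highest under SMARCA2/4, the 3 leading genes of each role list, and Brwd1 with the leading 5 genes of the triplicated segments. Further genes named beside these were chosen after their values were seen. Some results that the naming rule would include are not reported here.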

Additional observations from a re-analysis of the deposited data

How the results depend on the processing

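Of 62 alternative values, 32 moved by less than the interval or library SD of the value they replace, and neither median log2 ratio changed sign. Keeping gene body peaks with q under 0.001 left 2622 of 2624, so the values of that alternative could hardly move. Requiring peak centres within 100 bp gave 85.1% of gene body peaks in Ts65Dn, 85.4% in Ts65Dn;Brwd1+/-, 77.8% in both and 7.39% in neither. Reducing the trisomic lists to the euploid size by fold enrichment gave 65.7%, 60.6%, 51.9% and 25.5%, with median log2 ratios of 0.37 (Ts65Dn) and 0.15 (Ts65Dn;Brwd1+/-), which this cut raises by construction. The next alternatives were chosen after seeing the data. Reducing by q-value gave 68.7%, 68.5%, 58.5% and 21.4%, and ratios of 0.37 and 0.12. Keeping gene body peaks with q under 1e-06 gave 95.2%, 94.9%, 92.2% and 2.17%, ratios of 0.29 and 0.0411, a median fold enrichment of 3.77 and a median width of 274 bp. Keeping partners within 1.5 times the width and matched once gave ratios of 0.28 and 0.0321. The share under SMARCA2/4 was 6.10% where 50% of the peak had to be covered, 12.5% with SMARCA2/4 q under 0.001 and 26.6% with q under 0.05, the last added after seeing the data. Removing low counts by filterByExpr raised the median level of genes with a gene body peak to 6.52 RPKM, and leaving out 1 library at a time gave 5.54 to 5.65 RPKM. Motif shares in the deposited intervals stayed within their intervals for 8 of 9 motifs, and the nuclear receptor site went to 0.229%. No paired analysis was possible because no result here comes from a test between groups, and the peak lists carry no replicate numbers. The share of peaks found in a list depends on how many peaks were called in it, and with 1 list per genotype neither the replicate spread nor the depth behind a missing peak is known. A peak missing from a list was not called there, which does not show that the site was closed.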

Other observations

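Some genes that mark interneurons or cells other than neurons held gene body peaks. These were 2 of 12 genes (16.7%) each for astrocyte, microglia and endothelial and mural markers. Interneuron and oligodendrocyte markers had 1 of 12 (8.33%) each. Of the neuron markers 4 of 12 (33.3%) held such a peak, and of all protein-coding genes 7.43%. In the larger Ts65Dn and Ts65Dn;Brwd1+/- lists, gene body peaks were found in 4 and 4 astrocyte, 3 and 4 microglia, 5 and 5 endothelial and mural, 2 and 3 interneuron, 2 and 2 oligodendrocyte and 5 and 7 neuron markers. Of the astrocyte markers, Slc1a3 (a glial glutamate transporter) and Slc4a4 (a bicarbonate transporter) held 2 each, the strongest at 4.65 in Slc1a3. Ptprc (the leukocyte antigen CD45) held 2 among 12 microglia markers, Mbp (myelin basic protein) 1 at 4.49 among 12 oligodendrocyte markers, Flt1 and Cdh5 (endothelial receptors and junction proteins) 1 each, and Reln (reelin) 1 at 4.71 among 12 interneuron markers. In the cultures these genes ranged widely, from 0.00709 RPKM ± 0.0123 (SD, n = 3) for Cdh5 to 152.6 RPKM ± 20.04 for Slc1a3. The Flt1 window was 79.3% tandem copies. Whether the peaks in markers of cells other than neurons come from neurons or from other nuclei in the sort was not tested.

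Gene body peaks were scarce on the X chromosome. It held 15 of them among 240 euploid ATAC peaks (6.25%), while on the autosomes the share ranged from 13.3% on chromosome 7 to 20.9% on chromosome 14. The animals were males, and whether X copy number or read depth had a part in the X share was not tested. Of the 2624 gene body peaks, 174 (6.63%) lay in lincRNA genes, with a median fold enrichment of 3.77 against 3.62 for the 2334 in protein-coding genes. Read in the other direction, 31.1% of the 7859 gene body peaks of Ts65Dn and 27.2% of the 8976 of Ts65Dn;Brwd1+/- overlapped a euploid peak. Those that did were the stronger ones, with a median fold enrichment of 4.59 against 3.66 in Ts65Dn and 3.88 against 3.23 in Ts65Dn;Brwd1+/-.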
